A study of Mus musculus with 6 samples.

Results

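The yolk sac visceral endoderm genes described here are 34 transport, apolipoprotein, coagulation and endocytosis genes with 3 transcriptional regulators, listed by name and followed through arrays of early mouse heads. A gene counted as measured when a probe set, the group of probes that reads 1 transcript, was annotated with its symbol alone. This held for 32 of the 34 genes, out of 19938 genes measured by 21789 such probe sets. Apoc2 shared its probe set with other symbols and Soat2 had none matched here, so neither was analysed. Dab2 and Fga had a second probe set, and the brighter of each pair stood for the gene.

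Heads of untreated C57BL/6 embryos at embryonic day (E) 8.5 were pooled by 4, and total RNA of each pool was hybridized to an Affymetrix mouse Gene ST array. There were 3 pools of Jarid1b heterozygotes, which served as controls and carry 1 intact allele, and 3 pools of Jarid1b knockouts, called biological replicates by the study. The knockout is constitutive and was obtained by crossing mice with a loxP-flanked exon 6 to Cmv-cre mice, so the deletion is not limited to one tissue, and no wild-type pool was included. Values are log2 of the deposited linear intensities, on which a difference of 1 is 2-fold, and comparisons are knockout minus heterozygote.

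The visceral endoderm is the epithelium that surrounds the early embryo and later lines the outside of the yolk sac. Before the placenta works it feeds the embryo: it takes up maternal proteins through the receptors megalin and cubilin, degrades them in lysosomes, assembles lipoproteins, and secretes carriers and clotting proteins that the liver makes later. It shares much of this programme with liver, intestine and kidney, and Hnf4a is among the factors that maintain it. Some of its cells are also incorporated into the embryonic gut, and the sources used here do not say how the heads were trimmed.

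All 12 measured genes listed as markers of head neural ectoderm lay outside the dimmest 7263 probe sets. Their summed intensity ranged from 3432 to 3611 in heterozygote and from 3468 to 3561 in knockout pools. Jarid1b, listed as Kdm5b, read 9.17, 9.12 and 9.16 in heterozygotes and 7.63, 7.47 and 7.71 in knockouts (limma, adjusted p = 6.3e-04), as the labels require. Knockout replicate 3 stood apart in the genes of interest here, so the log2 fold changes of the genes described below are also given without it. It had the highest array median, 62.9 against 58.1 to 61.5, and the lowest upper quartile, 248 against 249 to 255. Pools also differed in sex-linked genes, with Xist at 4.22 in heterozygote replicate 2 and 3.74 in knockout replicate 2 against 8.82 to 10.17 elsewhere, and the Y-linked Uty from 5.77 to 7.60.

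The members lie on many chromosomes but include neighbours. With no other protein-coding gene between them, Fgg, Fga and Fgb adjoin on chromosome 3, Alb and Afp on chromosome 5, and Apoa1 and Apoa4 flank Apoc3 on chromosome 9. Promoters from RefSeq (GRCm38.p6) matched 28 of the 32 genes, with windows of 300 bases that end 50 bases past the start. They were searched on both strands for the HNF1 core (GTTAAT), the HNF4 core (CAAAGTC) and the binding letters of the GATA factors (AGATAA). The first was in 28.6% of the 28 genes and 8.24% of all 27025 genes of the table, the second in 14.3% and 5%, and the third in 17.9% and 12.7%. The 250 bases before the start are shown for the neighbours Fga, Fgb, Alb and Afp, and for Apom. Apom was lowest of all members in knockout replicate 3 relative to its other pools. The neighbours Fgg, Apoa1 and Apoa4, which are not shown, held none of the motifs in these bases. Capitals mark the motifs, and where the match is on the other strand they read as the reverse complement.
Afp, chr5:90490464-90490713, + strand, HNF1 at -105: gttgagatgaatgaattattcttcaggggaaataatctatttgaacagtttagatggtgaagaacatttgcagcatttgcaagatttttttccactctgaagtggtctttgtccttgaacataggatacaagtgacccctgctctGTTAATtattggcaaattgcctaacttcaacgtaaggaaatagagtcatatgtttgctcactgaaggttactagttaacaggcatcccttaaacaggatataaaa
Alb, chr5:90460620-90460869, + strand, HNF4 at -182 and HNF1 at -32: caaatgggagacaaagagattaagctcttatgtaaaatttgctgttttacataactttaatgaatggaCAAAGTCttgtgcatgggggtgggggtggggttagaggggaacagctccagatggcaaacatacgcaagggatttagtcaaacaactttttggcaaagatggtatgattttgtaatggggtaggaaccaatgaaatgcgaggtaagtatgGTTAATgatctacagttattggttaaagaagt
Fga, chr3:83025903-83026152, + strand, HNF1 at -43 on the other strand: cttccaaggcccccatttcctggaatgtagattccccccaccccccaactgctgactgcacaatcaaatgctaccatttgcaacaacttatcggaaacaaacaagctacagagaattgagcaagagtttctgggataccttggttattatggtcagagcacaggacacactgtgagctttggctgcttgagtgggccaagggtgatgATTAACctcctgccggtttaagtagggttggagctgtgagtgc
Fgb, chr3:83049864-83050113, - strand, HNF1 at -29 on the other strand: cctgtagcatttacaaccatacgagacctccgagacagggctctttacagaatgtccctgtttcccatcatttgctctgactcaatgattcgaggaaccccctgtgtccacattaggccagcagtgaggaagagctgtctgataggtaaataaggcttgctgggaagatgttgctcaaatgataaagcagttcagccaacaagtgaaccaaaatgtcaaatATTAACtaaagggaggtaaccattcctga
Apom, chr17:35131802-35132051, - strand, none of the motifs: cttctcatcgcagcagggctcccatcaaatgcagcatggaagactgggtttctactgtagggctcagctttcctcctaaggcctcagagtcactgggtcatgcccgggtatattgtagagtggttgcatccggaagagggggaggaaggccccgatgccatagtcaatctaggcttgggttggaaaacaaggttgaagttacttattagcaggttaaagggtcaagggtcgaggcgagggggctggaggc
Positions count from the transcription start to the first base of the match, and no match overlapped another in these windows. Afp and Alb both carried the HNF1 core, while Alb was among the dimmest 7263 probe sets and Afp was not. A match of letters is a description of the sequence and shows no binding.

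The question asked of these genes was which of them share a pattern over the 6 pools. The answer was most: 27 of the 32 genes were lowest in knockout replicate 3, or 84.4%, against 20.6% of all tested probe sets. For 24 genes, or 75.0%, the gap between this pool and the next lowest exceeded the whole range of the other 5 pools, which was true of 3.08% of all tested probe sets. These 24 genes are called separated below. The members were chosen with earlier results of these data known, so the contrast with all probe sets is a description and tests nothing. Leaving out the dimmest 7263 probe sets, 27 of 30 genes were lowest there against 25.9% of probe sets, and 24 were separated against 4.28%. No other pool had this role. Heterozygote replicate 2 was lowest for 3 genes (background 14.2%), heterozygote replicate 1 for 1 (14.8%) and knockout replicate 2 for 1 (15.8%), while heterozygote replicate 3 (16.8%) and knockout replicate 1 (17.9%) were lowest for none. In RNA of whole heads, fewer visceral endoderm cells and less RNA per cell cannot be told apart.

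**Figure D1:**
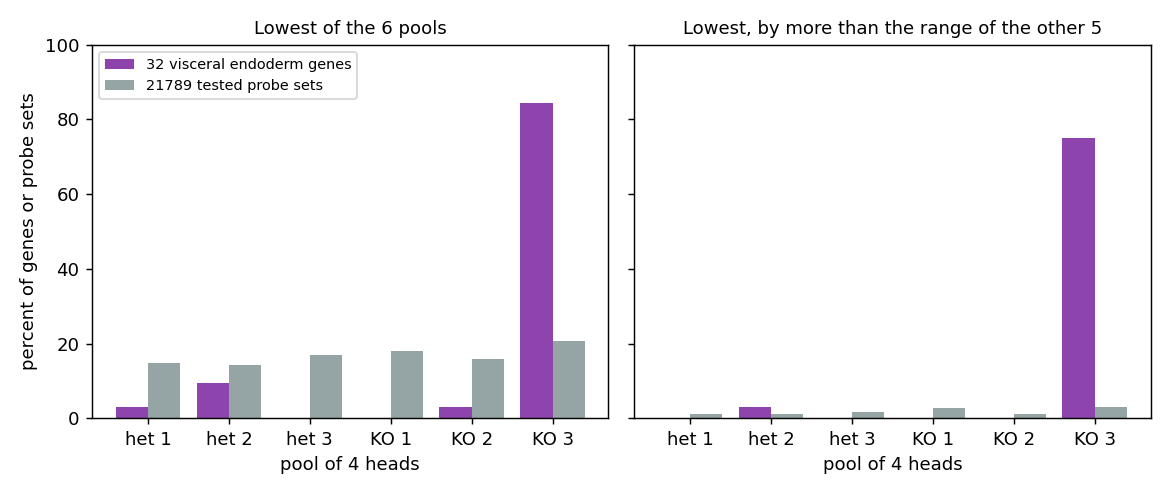
Percent of the 32 visceral endoderm genes (purple) and of the 21789 tested probe sets (grey) that are lowest in each pool (left) or lowest by more than the range of the other 5 pools (right). Knockout replicate 3 holds 84.4% and 75.0% of the genes against 20.6% and 3.08% of all probe sets.

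The size of the gap varied among the 24 separated genes from 0.21 for Pdzk1 to 1.43 for Apom, with a median of 0.76. It exceeded 1, which is 2-fold, for 7 genes: Apom, Apoa1, Cubn, Apob, Afp, Ctsh and S100g. Measured from each gene's median over the 6 pools, the 32 genes had a median deviation of -0.81 in knockout replicate 3, between -0.16 and 0.05 in the other pools. All tested probe sets had median deviations between -0.003 and 0.006 in every pool.

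**Figure D2:**
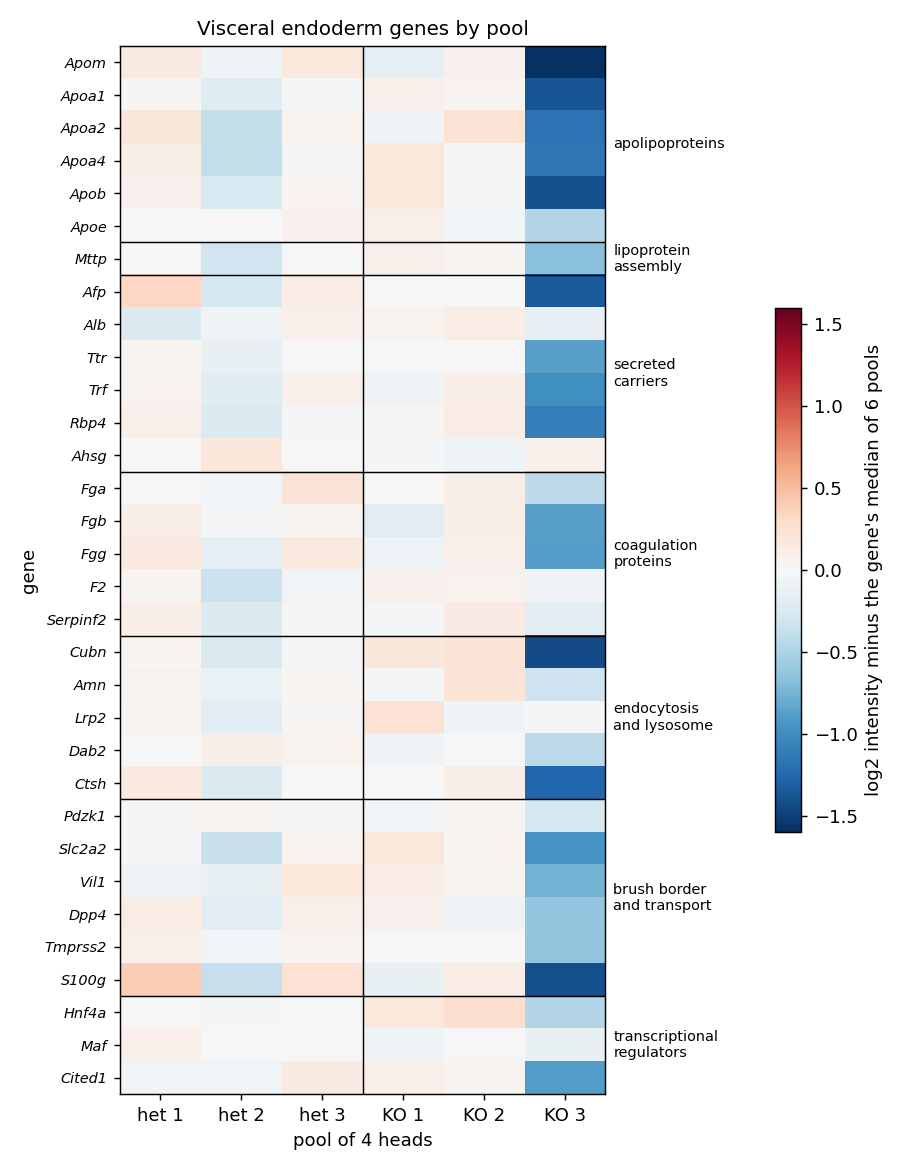
Log2 intensity of the 32 measured genes in each pool minus the gene's median of the 6 pools, on a colour scale from blue (lower) to red (higher), with the genes grouped by role. The knockout replicate 3 column is blue for all apolipoproteins and brush border genes, while Alb, Ahsg, F2 and Lrp2 lie between -0.14 and 0.08 there.

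Apolipoproteins are the protein part of lipoprotein particles, and all 6 that were measured were separated in knockout replicate 3. Apom, which carries sphingosine-1-phosphate on high density lipoprotein, read 9.08, 8.87 and 9.10 in heterozygote pools and 8.78, 9.01 and 7.35 in knockout pools. Its last pool lay 2.69-fold under the next lowest, while knockout replicate 2 lay within the heterozygote range. The log2 fold change was -0.64 with a standard error of 0.38 (limma, adjusted p = 0.577), and -0.13 without knockout replicate 3. Apoa1, the main protein of high density lipoprotein, read 10.71, 10.50 and 10.67 in heterozygotes and 10.77, 10.74 and 9.30 in knockouts. Knockout replicates 1 and 2 were thus above every heterozygote pool and replicate 3 was below them all, so that the log2 fold change was -0.36 with all pools and 0.12 without replicate 3. Apob, the scaffold of chylomicrons and very low density lipoprotein, read 9.53, 9.21 and 9.48 against 9.62, 9.43 and 8.05. Here the groups overlapped as well, with log2 fold changes of -0.37 and 0.12.

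Apoa2, a second protein of high density lipoprotein, read 9.18, 8.61 and 9.05 in heterozygotes and 8.93, 9.21 and 7.81 in knockouts. Apoa4, a component of chylomicrons, read 8.25, 7.77 and 8.13 against 8.32, 8.17 and 7.01. In both genes heterozygote replicate 2 was the next lowest pool, and the gaps under it were 0.80 and 0.76. Apoe, the ligand that lets the low density lipoprotein receptor family take up remnants, differed less, with 11.18, 11.17 and 11.24 against 11.25, 11.14 and 10.70. Its 5 other pools spanned only 0.12, so that a gap of 0.43 still set knockout replicate 3 apart. Mttp, the transfer protein that loads lipid onto Apob, was also lowest there, at 6.40, but its gap of 0.34 was smaller than the range of 0.40 over the other pools.

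Of 17 other lipoprotein genes, 10 were lowest in knockout replicate 3 and 3 were separated, against 20.6% and 3.08% of all tested probe sets. None passed an adjusted p under 0.05 in limma, where 0.00459% of all probe sets were called. At the low end of the fold changes were Apoc1, an inhibitor of lipoprotein uptake, at -0.51 and Apoc3, an inhibitor of lipoprotein lipase, at -0.12, which became -0.18 and 0.11 without knockout replicate 3. At the high end were Apof at 0.48 and Fabp1, a fatty acid binding protein, at 0.32, both among the dimmest 7263 probe sets, which became 0.39 and 0.67. Apoc1 lies next to Apoe and read 8.27, 7.81 and 8.18 against 7.99, 7.82 and 6.93. Apoc3, between Apoa1 and Apoa4, read 5.77 in knockout replicate 3 and 6.24 to 6.58 elsewhere. Apoc4, the next gene after Apoc1, and Apoa5, the next after Apoa4, did not share the gap. Apoc4 read 6.06 in that pool within a range of 5.96 to 6.19, and Apoa5 read 5.60 within 5.43 to 5.85. Apoc2, on the other side of Apoc4, was not analysed.

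Among 6 secreted carriers, 4 were separated and the other 2 were dim. Afp, the fetal counterpart of albumin and the classic product of this tissue, read 8.98, 8.37 and 8.77 in heterozygotes and 8.65, 8.65 and 7.31 in knockouts. Knockout replicates 1 and 2 lay inside the heterozygote range, which was itself wide, and replicate 3 lay 2.08-fold under heterozygote replicate 2. Between genotypes Afp differed by -0.50 on the log2 scale (adjusted p = 0.63 in limma, standard error 0.35), and by -0.05 without that pool. Ttr, the carrier of thyroid hormone and of the retinol complex, read 11.64, 11.49 and 11.61 against 11.62, 11.61 and 10.74. Its 5 other pools agreed within 0.15, and the gap was 0.75.

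Rbp4, the plasma carrier of retinol, read 9.70, 9.39 and 9.61 in heterozygotes and 9.63, 9.74 and 8.52 in knockouts. Trf, the iron carrier transferrin, read 6.99, 6.74 and 7.01 against 6.87, 7.04 and 5.95. Both repeated the order of Afp and Ttr, with heterozygote replicate 2 as the next lowest pool. Alb and Ahsg, albumin and fetuin-A of later liver, were in the dimmest 7263 probe sets, where values had a mean of at most 5.33. Alb read 3.54, 3.70 and 3.84 against 3.81, 3.87 and 3.62, and Ahsg read 3.93, 4.12 and 3.95 against 3.91, 3.87 and 4.02. Neither showed the pattern, and both lay near the lower end of the intensity scale.

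Coagulation proteins were divided. The fibrinogen chains, which form the clot, were all separated: Fgb read 7.17, 7.04 and 7.10 in heterozygotes and 6.89, 7.17 and 6.20 in knockouts, and Fgg read 6.59, 6.29 and 6.60 against 6.35, 6.51 and 5.55. Fga read 5.83, 5.80 and 6.04 against 5.85, 5.95 and 5.42. The fold changes of Fgb and Fgg, -0.35 each, were -0.08 and -0.06 without knockout replicate 3. The second probe set of Fga, among the dimmest 7263, had its lowest value there, 4.97 against 5.07 to 5.46, but was not separated. Its log2 fold change was 0.18 with all pools (limma, adjusted p = 0.622) and 0.33 without knockout replicate 3. The brighter Fga probe set had -0.15 and 0.01. F2, the precursor of thrombin, and Serpinf2, the inhibitor of plasmin, did not follow. F2 lay just above the dimmest 7263 probe sets, with means of 5.34 in heterozygotes and 5.48 in knockouts against their limit of 5.33. F2 read 5.50, 5.11 and 5.41 against 5.53, 5.51 and 5.40 and was separated low in heterozygote replicate 2 instead, as were 1.12% of probe sets, and Serpinf2 read 6.39 in heterozygote replicate 2 and 6.44 in knockout replicate 3.

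Further plasma proteins mostly lay low in intensity, with 11 of 17 among the dimmest 7263 probe sets. Here 5 were lowest in knockout replicate 3 and 4 separated, against 20.6% and 3.08% of all tested probe sets. Spp2, a secreted phosphoprotein, had a log2 fold change of -0.40 and Ambp, the precursor of a protease inhibitor, of -0.26, while Fetub at 0.28 and Serpind1, an inhibitor of thrombin, at 0.20 were at the high end. Without knockout replicate 3 the values were -0.03 for Spp2, -0.13 for Ambp, 0.19 for Fetub and 0.12 for Serpind1.

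Of 5 endocytic genes, 4 were lowest in knockout replicate 3 and 3 were separated: Cubn, Dab2 and Ctsh. Cubn, the receptor cubilin, read 9.20, 8.93 and 9.13 in heterozygotes and 9.35, 9.38 and 7.74 in knockouts. Knockout replicates 1 and 2 lay above all heterozygote pools, and replicate 3 lay 2.29-fold under the next lowest. Its log2 fold change was -0.27 with a standard error of 0.40 (limma, adjusted p = 0.831) and turned to 0.28 without replicate 3. Lrp2, the receptor megalin that carries cubilin into the cell, read 9.04, 8.83 and 9.02 against 9.23, 8.95 and 8.98. It showed no gap, and knockout replicate 3 lay inside the heterozygote range. Amn, the membrane anchor of cubilin, read 7.11, 6.95 and 7.09 against 7.02, 7.27 and 6.72, lowest in knockout replicate 3 by 0.23 while the other pools spanned 0.32.

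Dab2, the adaptor that links these receptors to clathrin, read 10.81, 10.91 and 10.87 in heterozygotes and 10.77, 10.82 and 10.40 in knockouts. It was separated with a gap of 0.36, and its adjusted p of 0.552 in limma was the smallest among the members. The second Dab2 probe set, in the dimmest 7263, read 2.62 to 2.78 in heterozygotes and 2.90 to 3.0 in knockouts, so that all knockout pools lay above the heterozygotes and there was no gap. Its log2 fold change was 0.23 with all pools (limma, adjusted p = 0.391) and 0.26 without knockout replicate 3, opposite in sign to the brighter probe set. Ctsh, a lysosomal cathepsin, read 8.04, 7.67 and 7.89 against 7.89, 7.99 and 6.62, a gap of 1.05.

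Of 15 other endocytic and lysosomal genes, 11 were lowest in knockout replicate 3 and 6 were separated, against 20.6% and 3.08% of all tested probe sets. Ctsc, another cathepsin, read 7.71 to 7.88 in the 5 other pools and 6.85 in knockout replicate 3, with a log2 fold change of -0.32 that was -0.01 without that pool. Lrpap1, the chaperone of megalin, had a log2 fold change of -0.21 with non-overlapping pools (limma, adjusted p = 0.429), and of -0.13 without knockout replicate 3. The highest fold changes were those of Lrp1 at 0.07 and Rab11a, a GTPase of recycling endosomes, at 0.06, which were 0.11 and 0.06 without that pool.

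**Figure D3:**
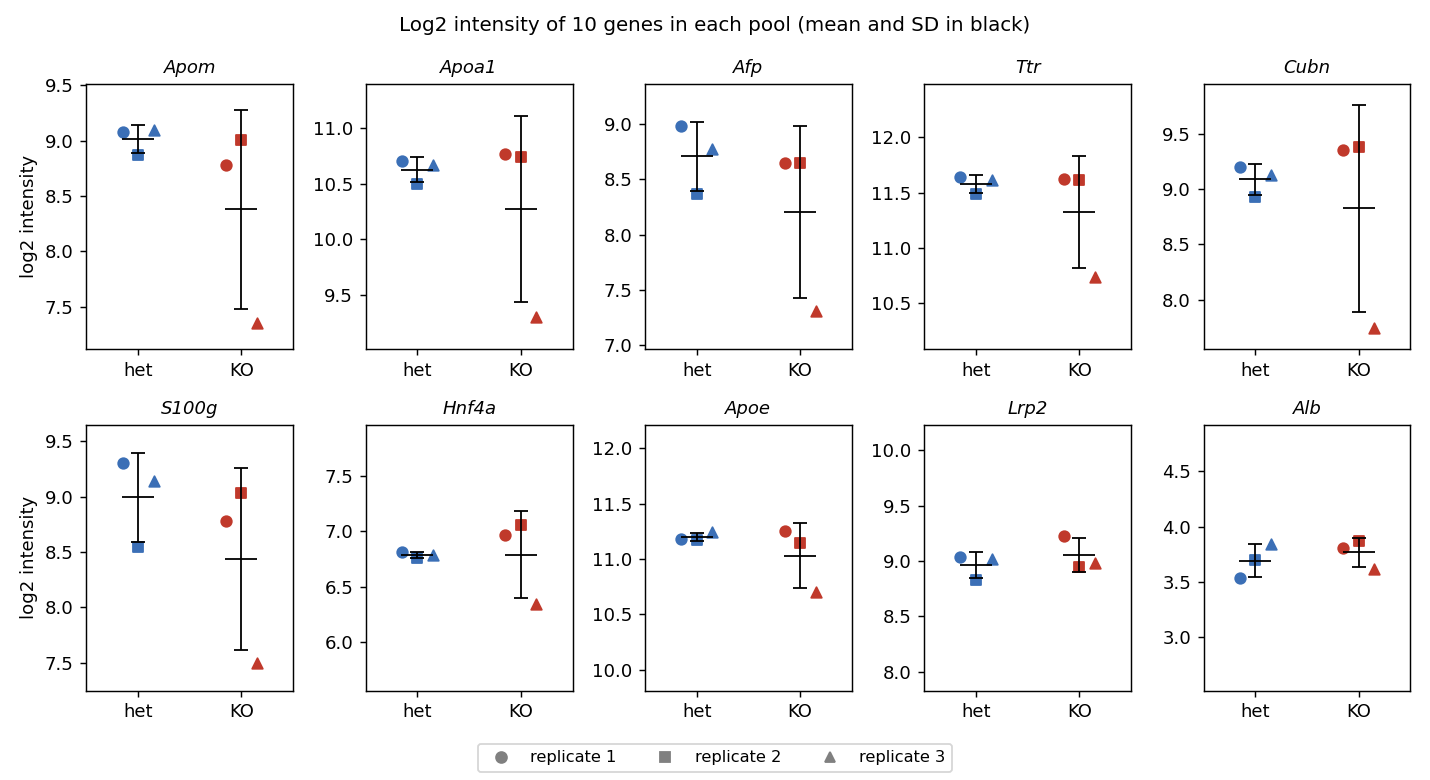
Log2 intensity of 10 genes per pool, with heterozygotes in blue, knockouts in red, a symbol for each replicate number and the mean with SD in black (n = 3 pools each), on axes of equal span. Knockout replicate 3, the red triangle, lies apart in the first 8 genes, at 7.35 for Apom and 7.74 for Cubn, but not for Lrp2 or Alb.

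All 6 brush border and transport genes were separated. S100g, a calcium binding protein of absorptive epithelia, read 9.30, 8.54 and 9.14 in heterozygotes and 8.78, 9.03 and 7.50 in knockouts. Its heterozygote pools alone spanned 0.75, the widest range among the separated genes, and the gap below them was 1.04. Its genotype difference was -0.55 (adjusted p = 0.624 in limma, standard error 0.38), and -0.09 without knockout replicate 3. Slc2a2, the glucose transporter GLUT2, read 6.86, 6.54 and 6.95 against 7.06, 6.92 and 5.94. Vil1, the actin bundler villin of microvilli, read 6.52, 6.46 and 6.75 against 6.70, 6.63 and 5.82.

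The peptidase Dpp4 read 6.65 in knockout replicate 3 and 7.09 to 7.40 in the other pools. The membrane protease Tmprss2 read 7.39 there and 7.98 to 8.10 elsewhere. Pdzk1, a scaffold that holds transporters at the apical membrane, read 6.78 there and 7.0 to 7.09 elsewhere, a small gap beside pools that agreed closely. These genes therefore shared the direction and not the size. In a further list of 15 brush border and transport genes, 6 were lowest in that pool, against 20.6% of all tested probe sets. The sulfate transporter Slc13a4 alone was separated, at 7.37 against 8.24 to 8.47, as were 3.08% of all tested probe sets. Slc13a4 and the zinc transporter Slc39a4 had the lowest fold changes, -0.28 and -0.16, and the dim genes Myo1a, a brush border myosin, and Slc5a1, a glucose cotransporter, the highest, 0.26 and 0.09. Without knockout replicate 3 these were 0.07 for Slc13a4, -0.12 for Slc39a4, 0.25 for Myo1a and 0.03 for Slc5a1.

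Of 3 transcriptional regulators, all were lowest in knockout replicate 3 and 2 were separated. Cited1, a coactivator without DNA binding, read 9.93, 9.93 and 10.11 in heterozygotes and 10.05, 10.01 and 9.08 in knockouts, a gap of 0.85 in a gene on the X chromosome whose value did not follow Xist. Hnf4a read 6.81, 6.76 and 6.79 against 6.97, 7.06 and 6.34. Its knockout pools thus lay on both sides of the heterozygotes, and the mean difference of 0.00 (standard error 0.17) became 0.23 without replicate 3. Maf, a bZIP factor, read 7.21, 7.14 and 7.14 against 7.06, 7.13 and 7.01, and was the only member whose genotypes did not overlap, with a log2 fold change of -0.10 (limma, adjusted p = 0.566) and -0.07 without replicate 3.

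Among 14 other regulators of this tissue, 6 were lowest in knockout replicate 3 and none was separated, against 20.6% and 3.08% of all tested probe sets. Gata4, needed for visceral endoderm and also for heart, had a log2 fold change of -0.22 (limma, adjusted p = 0.438) and Hnf4g of -0.12. At the other end were Klf4 at 0.28 and Nr5a2 at 0.17. Without knockout replicate 3 they were -0.16 for Gata4, -0.07 for Hnf4g, 0.41 for Klf4 and 0.22 for Nr5a2. The gap of the transport genes was therefore not seen in these other regulators, many of which are also expressed in other tissues of the head.

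Compared by genotype, no member passed an adjusted p under 0.05 in limma, where the rate over all probe sets was 0.00459% and Jarid1b alone was called. At an unadjusted p under 0.05 none was higher (background 5.97%) and none was lower (background 4.66%). Non-overlapping groups were seen for 1 gene lower in knockouts, Maf, against 9.03% of probe sets, and for none higher, against 8.03%. A difference over 1.5-fold was reached by 1 gene, Apom, lower, against 0.0367%. Exact permutation of 3 pools against 3 reaches no p below 0.1 for any gene.

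Over the 78 measured genes of the 5 related lists, none passed an adjusted p under 0.05 in limma either. At an unadjusted p under 0.05, 4 were higher, against 5.97% of all tested probe sets. These were Apof, Fetub, Myo1a and Nr5a2, all of them among the dimmest 7263 probe sets. Lower were 3, against 4.66%: Lrpap1, Gata4 and Vtn, the adhesive plasma protein vitronectin. Without knockout replicate 3 there were 7 higher, against 4.92% of probe sets, among them Apof, Myo1a and Nr5a2. None was then lower, against 3.58%, and again none had an adjusted p under 0.05.

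The median log2 fold change of the 32 genes was -0.21, against -7.2e-04 over all tested probe sets, with 27 genes below 0 and 5 above. Their standard errors had a median of 0.216, compared with 0.0714 over all probe sets, and the SD among knockout pools reached 0.94 for Cubn. Without knockout replicate 3 the median was 0.06, with 20 genes above 0 and 12 below, and 15 genes changed sign. Cubn and Hnf4a were then higher at an unadjusted p under 0.05, with limma p-values of 0.0189 and 0.00799 (adjusted p = 0.544 and 0.531), against 4.92% of probe sets. Without knockout replicate 2, which enlarges the weight of replicate 3, 4 genes were lower at that level (Apom, Fgb, Fgg and Dab2), against 4.42% of probe sets, with adjusted p from 0.403 to 0.464. The median was -0.35 without knockout replicate 1 and -0.33 without knockout replicate 2, so that the direction for the members as a group rested on a single pool.

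**Figure D4:**
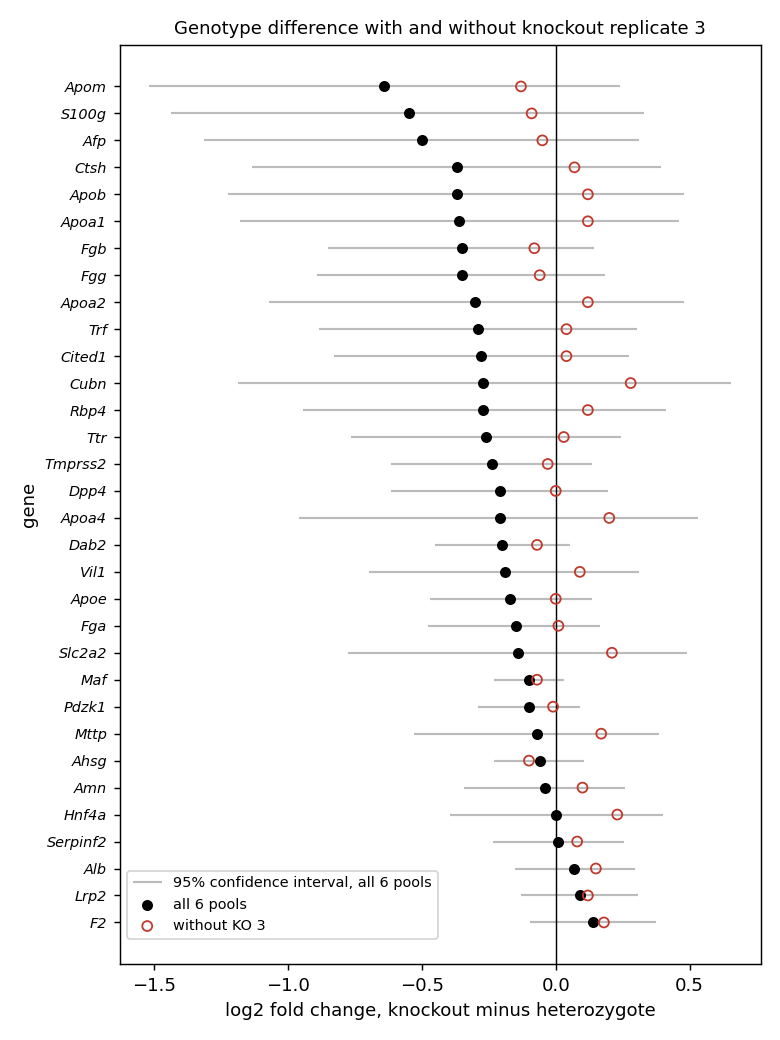
Log2 fold change, knockout minus heterozygote, of the 32 genes with all 6 pools (black, with the 95% confidence interval of limma in grey) and without knockout replicate 3 (red circles). Every grey interval crosses 0, and the median moves from -0.21 to 0.06 when that pool is left out.

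A smaller difference ran the same way within the heterozygotes. Heterozygote replicate 2 was the second lowest pool for 18 of the 24 separated genes. Over all 32 genes it was the lowest of the 5 pools other than knockout replicate 3 for 23, or 71.9%, against 16.8% of all tested probe sets. Its median deviation was -0.16, as in Apoa2 (8.61 against 9.05 and 9.18 in the other heterozygotes), Afp (8.37 against 8.77 and 8.98) and S100g (8.54 against 9.14 and 9.30). Among the separated genes, Dab2 and Pdzk1 went against this, with heterozygote replicate 2 as their highest pool.

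Of the 13188 genes outside the dimmest probe sets, 596 were separated low in knockout replicate 3, and 24 of these, or 4.03%, were members. With a gap over 0.5 there were 49 such genes, of which 18, or 36.7%, were members. By the same limit the other pools had 0, 1, 0, 3 and 1 such genes, from heterozygote replicate 1 to knockout replicate 2, and no member. Of the 20 genes with the largest gaps 9 were members, and of the 40 largest 18. These shares are descriptions too, as the list was made with earlier results of these data known. The 10 non-members with the largest gaps were Car7, a carbonic anhydrase, at 1.38, the galectin Lgals2 at 1.37, 2610528J11Rik at 1.31, Pla2g12b, a phospholipase relative, at 1.16, Spp2 at 1.04, Nxf7 at 0.98, Apoc1 at 0.88, Slc13a4 at 0.87, Ctsc at 0.86 and the amino acid transporter Slc7a8 at 0.86. Car7 read 8.12 to 8.38 in the other pools and 6.74 in knockout replicate 3. 2610528J11Rik read 7.90 to 8.0 in the other pools, a spread of only 0.10, and 6.59 in knockout replicate 3. Apoc1, Spp2, Slc13a4 and Ctsc were also on the lists of related genes above.

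Marker lists of 12 cell types were set beside these genes. The visceral endoderm markers, all 13 of which are members, had a median deviation of -1.10 in knockout replicate 3 and a summed intensity of 5747 there, against 9811 to 11090 in heterozygotes and 10980 and 10990 in the other knockouts. The list for parietal endoderm, the other extraembryonic endoderm, had a median deviation of -0.16 in that pool. There 9 of its 10 markers were lowest and 5 were separated, against 20.6% and 3.08% of all tested probe sets. Its sum was 5072 against 5501 to 5748 elsewhere. Whether these genes, among them Col4a1, Lama1 and Sparc, read that tissue alone in whole heads was not tested. Foregut and definitive endoderm had 1 of 13 markers separated and a median deviation of -0.04, although its sum of 5466 was also the lowest (5891 to 6675 elsewhere). The median of the primitive blood list moved the other way, at 0.21 and 0.17 in knockout replicates 3 and 2. Its sums there were 791 and 2098, against 525 to 612 in the other pools. In knockout replicate 2 the globins Hba-x and Hbb-bh1 read 10.09 and 8.87, against at most 7.78 and 6.14 elsewhere. Nfe2, at 5.25, was lowest in that pool and Alas2 read 5.99 within 5.83 to 6.35, so not all blood markers rose there. In knockout replicate 2, which had the highest blood sum, the visceral endoderm markers had a median deviation of 0.045.

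Endothelium and surface ectoderm were at -0.14 and -0.13 in knockout replicate 3, neural ectoderm at 0.06, and the remaining 5 lists between -0.07 and -0.01. A lowest sum in that pool was not particular to endoderm. It was also seen for endothelium (1704 against 1831 to 2060) and surface ectoderm (6792 against 7366 to 8105). Amnion with allantois (4560 against 4941 to 5481), trophoblast (3208 against 3269 to 3643) and decidua (691.1 against 716.8 to 836.5) had it too. Of 11 endothelium markers, 8 were lowest there and 1 was separated. No marker of neural ectoderm was separated there. What part any of these tissues has in the gap was not tested.

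**Figure D5:**
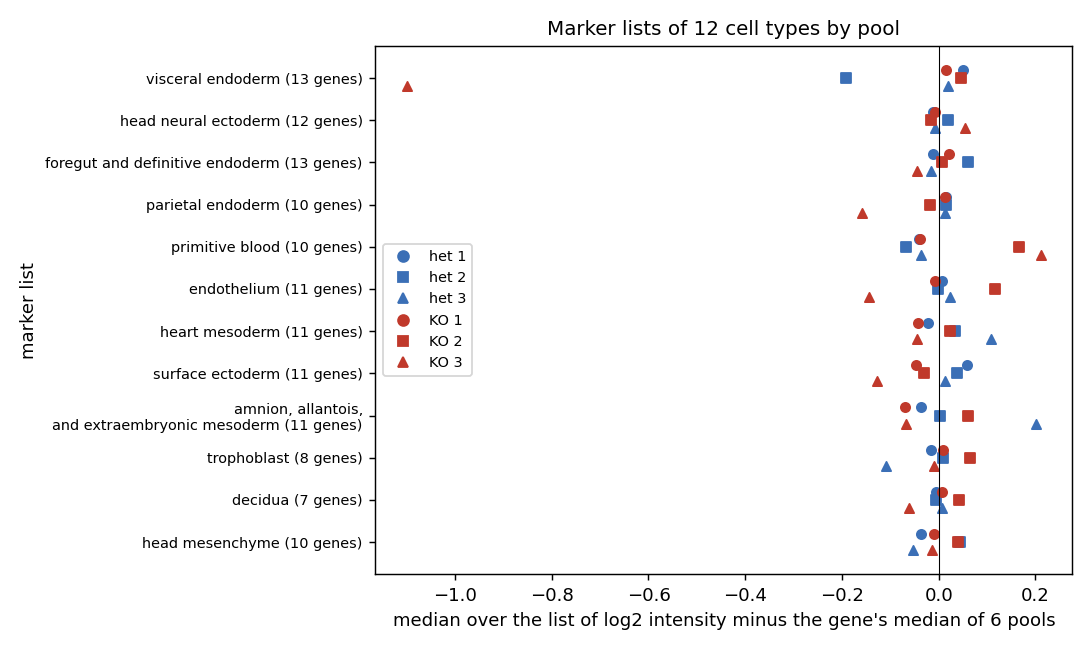
Median over each of 12 marker lists of the log2 intensity minus the gene's median of the 6 pools, with heterozygotes in blue, knockouts in red and a symbol for each replicate number. Visceral endoderm, a list of 13 of the 32 members themselves, lies at -1.10 in knockout replicate 3, where all 32 had a median deviation of -0.81. The other 11 lists stay between -0.16 and 0.21 in all pools.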

How the data were processed

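Conditions and replicate numbers came from the sample labels. The authors summarized the arrays by RMA with Affymetrix Power Tools, as the submitters' notes state without a version. The deposited intensity values reach from 2.53 to 11741, a linear scale, and were converted to log2. Of 35556 rows, the 21789 annotated with a single symbol were tested. The brightest probe set stood for a gene. Genotypes were compared by moderated linear models without covariates (limma 3.58.1, R 4.3.3) and Benjamini-Hochberg adjustment, and the script was tested on simulated data. Precision is limited by the number of arrays. A gene was separated low in a pool when its gap to the next pool exceeded the range of the other 5. The members and lists were chosen with earlier results of these data known, so no test over a list was run. Named genes are the members, Kdm5b, the 2 highest and 2 lowest fold changes of each related list, the 10 non-members with the largest gap in knockout replicate 3, Xist and Uty. Chosen after their values were seen were the neighbours Apoc4 and Apoa5, Vtn, and the markers named for parietal endoderm and primitive blood. Alternatives changed the filter, rows, probe set rule, scaling, variance model, array weights and replicate block, and left out each pool. Counts of non-overlapping genes without knockout replicate 3, fold changes of related genes and second probe sets without it, and Jarid1b under the alternatives, were added after seeing the data. Genes not matched to a probe set of their own were not analysed here. Sequences are from the RefSeq promoter table of GRCm38.p6, and the arrays' values carry no coordinates.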

Additional observations from a re-analysis of the deposited data

How the results depend on the processing

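No member passed an adjusted p under 0.05 in limma under any alternative run, and 23 or 24 genes were separated low in knockout replicate 3 under each filter, probe set rule and scaling. The labels give the pools replicate numbers and no pairing. Deviations of same-numbered pools correlated at 0.001, 0.106 and -0.013, and those of differently numbered pools between -0.083 and 0.08. Whether same-numbered pools shared a litter or a batch was not tested. With the replicate block, the smallest adjusted p of a member was 0.544 and no call changed. Leaving out each pool in turn moved the median log2 fold change of the members between -0.35 and 0.06, the count lower at an unadjusted p under 0.05 between 0 and 4 and the count higher between 0 and 2. The median was lowest without knockout replicate 1, the 4 lower genes arose without knockout replicate 2, and the median of 0.0562 and the 2 higher genes arose without knockout replicate 3. The log2 fold change of Jarid1b stayed between -1.60 and -1.48. Without knockout replicate 3, non-overlapping groups were 5 higher (background 12.7%) and 2 lower (13.1%). Without the dimmest 7263 probe sets, 0 members were lowest in heterozygote replicate 1 and 0 in knockout replicate 2. With the mean of a gene's probe sets, Fga turned to 0.0118 and Dab2 to 0.018. Log2 fold changes that turned sign on leaving out a pool ranged from -0.61 to 0.12 for Apoa1, -0.57 to 0.12 for Apoa2, -0.46 to 0.20 for Apoa4, -0.67 to 0.12 for Apob, -0.20 to 0.17 for Mttp, -0.0054 to 0.15 for Alb, -0.41 to 0.0313 for Ttr, -0.50 to 0.0435 for Trf and -0.49 to 0.12 for Rbp4. They ranged from -0.26 to 0.0055 for Fga, -0.0852 to 0.0821 for Serpinf2, -0.54 to 0.28 for Cubn, -0.18 to 0.10 for Amn, -0.62 to 0.0689 for Ctsh, -0.35 to 0.21 for Slc2a2, -0.35 to 0.0873 for Vil1, -0.13 to 0.23 for Hnf4a and -0.45 to 0.0394 for Cited1. Scaling by array median, quantiles or cyclic loess changed no direction among the members.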
